A study of Mus musculus with 22 samples.

Results

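10 genes of CXC chemokines, Cxcl1, Cxcl2, Cxcl5, Cxcl9, Cxcl10, Cxcl11, Cxcl12, Cxcl13, Cxcl14 and Cxcl16, were followed across 22 RNA-sequencing libraries of mouse inguinal white adipose tissue (IWAT). The genes were picked by symbol from the 23420 gene symbols of the count table, without using their values in the rule. All mice were wildtype C57Bl/6 females that carried a tumor. The lean mice ate chow and the obese mice a high fat diet (HFD) for 16 weeks. At an age of about 20 weeks the left pad received E0771 cells, a mammary carcinoma line from the same strain, in PBS and Matrigel, and the right pad received the vehicle without cells. Both pads were taken 2 weeks later as tumor-associated and control IWAT, giving 5 lean and 6 obese mice with 1 library per pad. The control pad therefore came from a tumor-bearing animal, a single cell line stands for the tumor, and mice without a tumor were not analysed here. According to the study's methods the inguinal lymph node and the fat sheet next to the tumor were removed before the tissue was collected.

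Chemokines of the CXC family are small secreted proteins that direct the migration of leukocytes through G protein-coupled receptors. Cxcl1, Cxcl2 and Cxcl5 carry the ELR motif and attract neutrophils through Cxcr2. Cxcl9, Cxcl10 and Cxcl11 are induced by interferons and attract activated T and NK cells through Cxcr3. Cxcl12 is made by stromal cells and holds progenitors and lymphocytes through Cxcr4, Cxcl13 draws B cells to follicles through Cxcr5, Cxcl16 exists as a membrane-bound and a shed ligand of Cxcr6, and Cxcl14 is an abundant homeostatic chemokine of epithelia and stroma. In adipose tissue, such ligands are made by adipocytes, stromal and endothelial cells and by immune cells.

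In obese mice, 4 of the 8 chemokines that could be tested, Cxcl1, Cxcl2, Cxcl9 and Cxcl10, were more abundant on the tumor side than on the control side, and Cxcl12 was less abundant. Over all 14458 genes tested, 54.5% were called in this comparison, 26.8% higher and 27.7% lower, so the share of chemokines called, 5 of 8, lay near that of genes at large. Between tumor-associated pads of obese and lean mice, 4 chemokines were higher and 1 lower, beside 24.7% and 22.4% of all genes (47% in either direction). Both counts of 4 include Cxcl2, which passed the filter on low counts through obese libraries, so its calls add no support. In lean mice 0 of the 8 passed the test, beside 4.18% of all genes. Between control pads of obese and lean mice only Cxcl14 did, being lower in obese mice, beside 17.1% of all genes called and 7.53% called lower. None of the 8 passed the test of whether the tumor-associated change differed between diets, which 4.92% of all genes did. All calls are by edgeR's quasi-likelihood test at a Benjamini-Hochberg adjusted p under 0.05. The panels of levels by library show these patterns and how far single mice carried them.

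**Figure D1:**
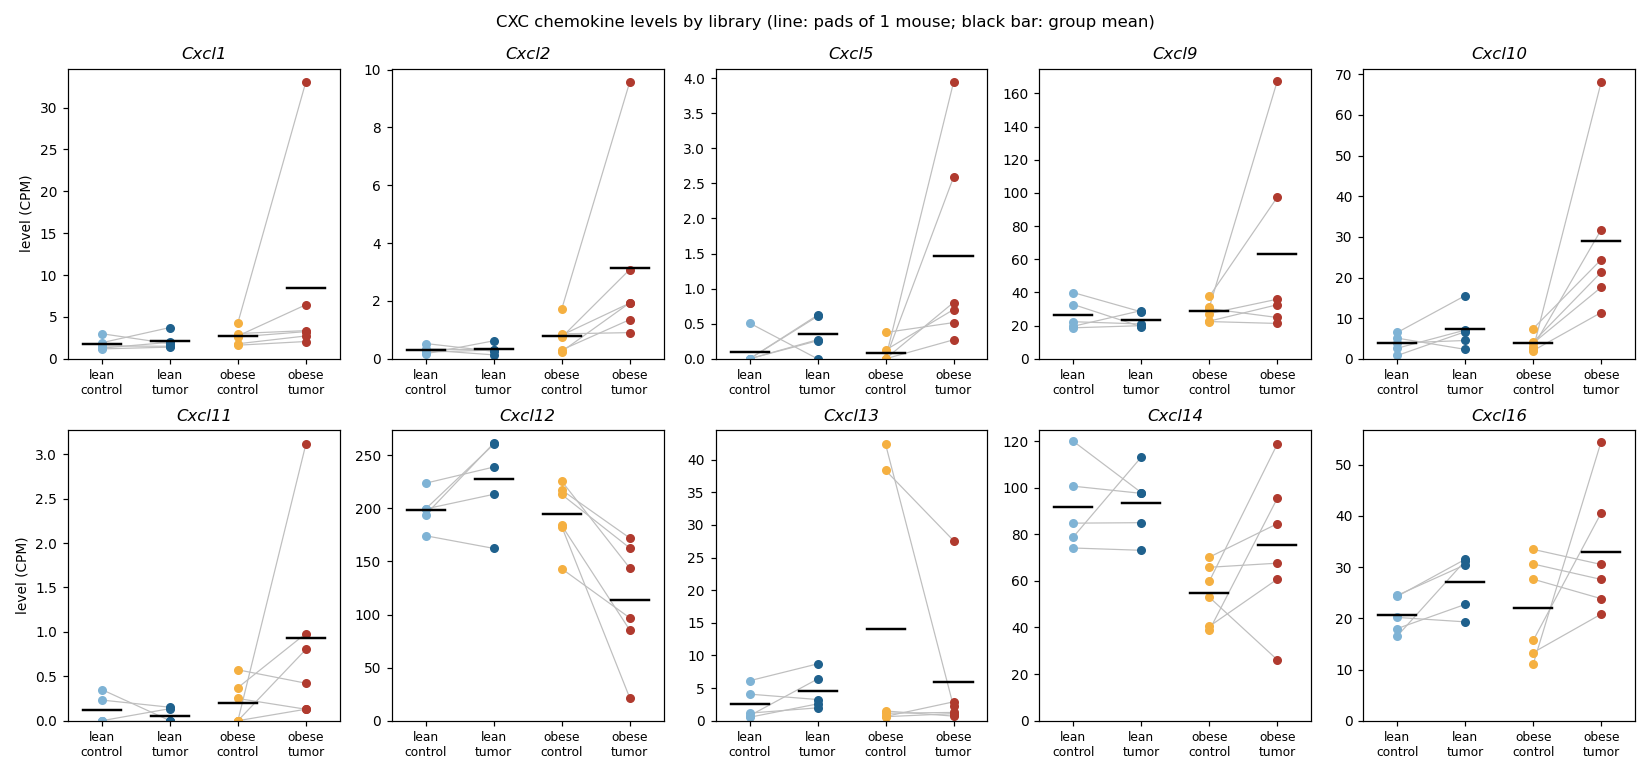
Level of each CXC chemokine in CPM (counts scaled to the library total) in each of the 22 libraries, with a thin line joining the pads of 1 mouse and a black bar at the group mean. Cxcl10 rose in all 6 obese mice, whereas the highest Cxcl1, Cxcl2 and Cxcl5 came from 1 mouse and the highest Cxcl9 from a pair of mice.

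Libraries held between 5759775 and 8598108 counts on genes, and levels are given as CPM, counts scaled to the TMM-normalized total of the library. At this depth 3 counts correspond to 0.348 to 0.528 CPM, the most that a count of 0 allows for counting error alone. All 6 adipocyte markers were detected in each group, with a summed level of 1676 to 21740 CPM. In bulk tissue, fewer cells of a type and less RNA per cell cannot be told apart. Markers of lymphoid tissue stood apart in 3 libraries, the control pads of obese mice 1 and 3 and the tumor-associated pad of obese mouse 3. Their summed B cell markers were 155 to 641 CPM, against 2.60 to 73.1 CPM in the other 19 libraries, and their summed lymph node stroma markers were 63.0 to 571 CPM against 0.460 to 13.99 CPM, with Ccl21a at 0 counts in all 22 libraries. Cr2 and Fcer2a of the stroma list are also B cell genes, at 39.1 and 10.8 CPM in the tumor-associated pad of mouse 3. Glycam1 of that list reached 339 CPM in obese control IWAT and 7.995 CPM in that pad. Between obese pads all 6 adipocyte markers were called lower on the tumor side and 7 of 8 macrophage markers higher, beside 27.7% and 26.8% of all genes. Between lean pads 0 adipocyte markers were called lower and 7 macrophage markers higher, beside 4.18% of all genes in either direction. Their part in the chemokine levels was not tested. Chemokine results that rest on these libraries are given with and without them, and those of other genes in part. The tumor-associated library of obese mouse 4 had the lowest adipocyte and endothelial marker sums of all libraries, 1676 and 257 CPM.

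Per kilobase of exon, the levels of the 10 chemokines ran from 0.0307 to 50.2 CPM per kb in control IWAT of lean mice. Cxcl14 was the most abundant (50.2 ± 10.2, SD, n = 5) and Cxcl12 followed without overlap (27.7 ± 2.47). Cxcl9 (9.23 ± 3.21) and Cxcl16 (7.67 ± 1.34) came next, and their ranges over mice overlapped. Cxcl10 (2.48 ± 1.44), Cxcl13 (2.20 ± 2.14) and Cxcl1 (1.87 ± 0.770) also overlapped among themselves and lay below Cxcl16 without overlap. Cxcl2 was at 0.170 ± 0.0724 CPM per kb, Cxcl5 at 0.0646 ± 0.144 and Cxcl11 at 0.0307 ± 0.0434, where each range overlapped with the next. These genes had at most 3, 3 and 2 counts in any lean control library, so their order was not resolved. By group mean Cxcl14 stayed at the top in all 4 groups. In obese control IWAT its range overlapped with that of Cxcl12 (29.9 ± 7.13 against 27.1 ± 4.29 CPM per kb). In tumor-associated IWAT of obese mice, Cxcl9 (21.9 ± 20.2 CPM per kb, n = 6) and Cxcl10 (19.1 ± 13.3) stood above Cxcl12 (15.9 ± 7.97), but the ranges of all neighbours in this order overlapped. With the exon length of all transcripts instead of the basic set, Cxcl12 stood above Cxcl10. The plot of levels per exon length shows this order.

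**Figure D2:**
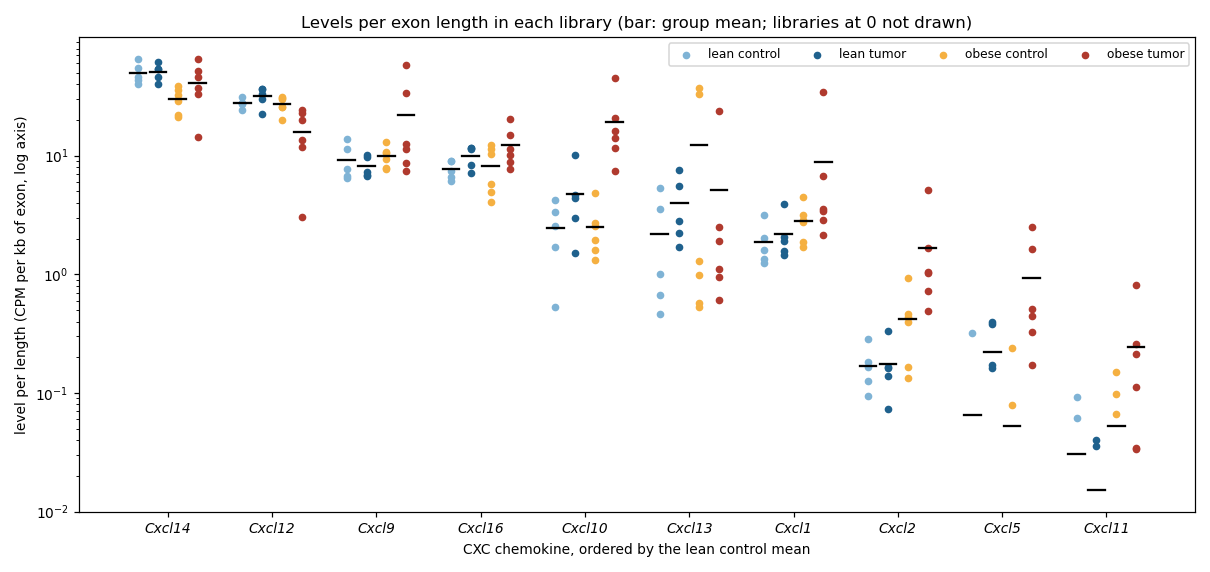
Level per kilobase of exon (CPM per kb, log axis) of the 10 CXC chemokines in each library, ordered by the mean in lean control IWAT, with bars at the group means. Libraries at 0 are not drawn, which concerns Cxcl5 and Cxcl11. Cxcl14 and Cxcl12 lead in control IWAT, and Cxcl10 moves up beside Cxcl12 in tumor-associated IWAT of obese mice.

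The Cxcr2 ligands were low in most libraries, and their highest values were in tumor-associated IWAT of obese mice. Cxcl1 (chr5:90891241-90893115, plus strand, GRCm38) was at 1.28, 1.92, 1.53, 2.99 and 1.19 CPM in control IWAT of lean mice 0, 2, 3, 6 and 9. In tumor-associated IWAT of these mice the values were 1.97, 3.73, 1.49, 1.80 and 1.39 CPM. The lean groups overlapped, with 3 of 5 mice higher in the tumor-associated pad. In obese mice the control pads ran from 1.62 to 4.30 CPM with a median of 2.67, and the tumor-associated pads from 2.06 to 33.1 CPM with a median of 3.30. Each of the 6 obese mice had more Cxcl1 in the tumor-associated pad, but the library of mouse 8, at 33.1 CPM, stood far above the next, at 6.45 CPM. The fitted rise was 1.66 log2 units (SE 0.56, adjusted p = 0.0169 in edgeR's quasi-likelihood test). Without the tumor-associated library of mouse 8 it was 0.40 log2 units (adjusted p = 0.32), and without both pads of that mouse 0.60 (adjusted p = 0.148), so that the call rested on this mouse.

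Cxcl2 (chr5:90903871-90905938, plus strand), a close relative of Cxcl1 that macrophages and endothelial cells release on activation, was lower still. Its lean libraries held between 1 and 4 counts each. Control IWAT of obese mice had 0.250 to 1.72 CPM with a median of 0.780, and tumor-associated IWAT 0.905 to 9.57 CPM with a median of 1.93. All 6 obese mice were higher in the tumor-associated pad, and although the groups overlapped, the rise of 1.98 log2 units (SE 0.52, adjusted p = 0.00346, edgeR) was called in each of the 22 fits that left out a library, with values from 1.21 to 2.36. Tumor-associated IWAT of obese mice exceeded that of lean mice by 3.21 log2 units (SE 0.62, adjusted p = 0.000387), and here the groups did not overlap, with all obese libraries higher, as was the case for 11% of all genes tested. Cxcl2 reached 10 counts only in libraries of obese mice, 5 tumor-associated and 1 control, and so had to be high there to pass the filter on low counts, so these differences describe the counts and support nothing further. The lean libraries lie near the level of single counts, which leaves the size of the difference uncertain. Between control pads, obese mice exceeded lean mice by 1.28 log2 units in Cxcl2 (SE 0.67, adjusted p = 0.203) and by 0.60 in Cxcl1 (SE 0.62, adjusted p = 0.562), and neither was called.

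Cxcl5 (chr5:90759360-90761624, plus strand), which activated epithelial and adipose stromal cells produce, did not pass the filter on low counts and was not tested with the others. It had 0 counts in 4 of 5 lean and 4 of 6 obese control libraries and in 1 lean tumor-associated library. In tumor-associated IWAT of obese mice it had 5, 20, 5, 4, 2 and 28 counts in mice 0, 1, 2, 3, 4 and 8, more than in the control pad of the same mouse in all 6. A fit without the filter gave 3.76 log2 units (SE 0.90, adjusted p = 0.00228, edgeR). Its highest library was again that of mouse 8, with 3.94 CPM.

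Markers of neutrophils, the cells that Cxcr2 ligands attract, were scarce. Over 7 markers the summed level was 3.98 to 9.83 CPM in lean control IWAT, 9.58 to 30.6 CPM in lean tumor-associated IWAT, 6.86 to 12.5 CPM in obese control IWAT and 14.9 to 28.4 CPM in obese tumor-associated IWAT. Most of this sum was Csf3r, which monocytes also express, at a mean of 18.7 CPM (SD 5.18, n = 6) on the tumor side of obese mice. S100a8, the only other of these markers tested, was lower on that side in 6 of 6 mice, at 0.998 against 2.08 CPM (-1.05 log2 units, adjusted p = 0.194, edgeR), without being called. Among markers not tested, S100a9, Retnlg and Mmp8 were higher there in 4, 5 and 6 of 6 mice. The granule genes Camp and Ngp were at 0 in 21 and 16 of 22 libraries. In mouse 8, the mouse with the most Cxcl1, Cxcl2 and Cxcl5, the neutrophil sum was 20.4 CPM, within the range of the other obese tumor-associated libraries, and the skeletal muscle sum was 183 CPM, the highest of that group. The part of either cell type in the chemokine levels was not tested.

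The bases before the transcription start of Cxcl1 and Cxcl2 share a motif, which is why they are shown here. The windows run from 250 to 51 bases before the RefSeq start on GRCm38.p6, 5′ to 3′ on the gene's strand, with matches to the kappaB consensus, the binding sequence of NF-kappaB, in capitals.
Cxcl1, chr5:90890995-90891194, plus strand: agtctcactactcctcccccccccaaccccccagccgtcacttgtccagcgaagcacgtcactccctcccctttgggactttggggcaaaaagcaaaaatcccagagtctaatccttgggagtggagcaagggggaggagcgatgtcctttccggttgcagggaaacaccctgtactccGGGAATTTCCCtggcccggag
Cxcl2, chr5:90903649-90903848, plus strand: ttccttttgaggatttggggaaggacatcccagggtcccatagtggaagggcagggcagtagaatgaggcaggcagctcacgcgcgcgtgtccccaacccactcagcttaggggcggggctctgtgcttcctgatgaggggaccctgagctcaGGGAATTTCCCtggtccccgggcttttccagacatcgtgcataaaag
Both hold the run GGGAATTTCCC, in which matches on the plus and the minus strand overlap, from 71 bases before the start of Cxcl1 and from 97 bases before that of Cxcl2. Of 32841 RefSeq promoter windows of the same 200 bases, 3.13% held a match to the kappaB consensus on either strand. Such a match is a description of the letters and was not tied to the levels. RefSeq windows were at hand for 7 of the 10 genes, without Cxcl5, Cxcl11 and Cxcl16.

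The Cxcr3 ligands included the chemokine with the clearest tumor-associated difference. Cxcl10 (chr5:92346638-92348889, minus strand), which interferons and NF-kappaB induce in many cell types, was at 0.813, 6.47, 2.60, 3.87 and 5.09 CPM in control IWAT of lean mice 0, 2, 3, 6 and 9. In their tumor-associated IWAT it was at 6.66, 15.5, 7.06, 4.51 and 2.32 CPM. The pads overlapped, 4 of 5 lean mice were higher on the tumor side, and the difference of 0.96 log2 units (SE 0.55, adjusted p = 0.434, edgeR) was not called. None of the 8 chemokines was called by DESeq2 between lean pads either, and 0 had an unadjusted p under 0.05 in the edgeR fit.

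In obese mice, Cxcl10 in control IWAT was at 2.94, 2.01, 7.44, 4.12, 2.46 and 3.87 CPM in mice 0, 1, 2, 3, 4 and 8. The tumor-associated pads of the same mice had 31.8, 11.4, 24.4, 21.3, 68.1 and 17.6 CPM. The lowest tumor-associated library lay above the highest control library, which held for 9.95% of all genes tested. The rise was 2.92 log2 units or 7.55-fold (SE 0.50, adjusted p = 0.000129, edgeR). It ranged from 2.45 to 3.22 log2 units in the 22 fits that left out a library and was called in all of them, and it was 2.84 (adjusted p = 0.00132) without the 3 libraries with lymph node markers. Cxcl10 lies within the span of Art3 on the opposite strand. Whether exons of the pair overlap was not checked, and the strand setting of the counting was not given in the sources used here. A share of Art3 reads in these counts was therefore not tested.

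The tumor-associated difference of Cxcl10 was 1.96 log2 units larger in obese than in lean mice (SE 0.73). This difference between diets had a p of 0.0141 before and 0.0819 after adjustment in edgeR, and an adjusted p of 0.0429 for Cxcl10 in DESeq2. It was called in 1 of the 22 fits that left out a library, that without the tumor-associated library of obese mouse 1, which had the lowest Cxcl10 of its group (adjusted p = 0.037).

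Of 3 motifs searched in all 7 windows, the window of Cxcl10 held matches to the kappaB consensus and to the core of the interferon-stimulated response element (ISRE, GAAA, any 2 bases, GAAA), while the window of Cxcl9 held none. The pair is shown because Cxcl9 and Cxcl10 were both called in obese mice and differ in these letters, again with matches in capitals.
Cxcl10, chr5:92348940-92349139, minus strand: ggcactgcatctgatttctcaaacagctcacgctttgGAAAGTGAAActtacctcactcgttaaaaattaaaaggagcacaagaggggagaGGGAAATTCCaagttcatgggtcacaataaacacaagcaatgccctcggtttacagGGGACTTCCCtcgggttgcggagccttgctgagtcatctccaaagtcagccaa
Cxcl9, chr5:92328130-92328329, minus strand: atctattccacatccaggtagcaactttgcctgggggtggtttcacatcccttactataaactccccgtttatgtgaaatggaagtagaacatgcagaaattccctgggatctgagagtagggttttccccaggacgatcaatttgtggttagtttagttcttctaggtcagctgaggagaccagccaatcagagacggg
In Cxcl10 the ISRE core began 213 bases and the kappaB matches began 159 and 103 bases before the start. The ISRE core was present in 2.41% of the promoter windows and the core of the gamma-activated sequence (GAS, TTCNNNGAA), found in neither gene, in 5.76%. The window of Cxcl14, which was not called between pads, held an ISRE core and a GAS core, and those of Cxcl12 and Cxcl13 held no match. No match says only that these letters are not in this window.

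Cxcl9 (chr5:92321347-92328079, minus strand), which depends on interferon gamma and is made largely by macrophages, was more abundant than Cxcl10 in CPM and differed less. Lean control libraries ran from 18.7 to 39.9 CPM and lean tumor-associated libraries from 19.3 to 29.1 CPM. Obese control libraries ran from 22.4 to 37.6 CPM with a median of 28.7. Tumor-associated libraries of obese mice 0, 1, 2, 3, 4 and 8 had 35.9, 32.6, 21.3, 168, 97.4 and 24.9 CPM. Mice 3 and 4 were thus far above the rest, the other 4 lay within the range over the control libraries of lean and obese mice, and 4 of 6 mice were higher in the tumor-associated pad. The fitted rise of 1.15 log2 units (SE 0.40, adjusted p = 0.0188, edgeR) was lost without the library of mouse 3 (0.57 log2 units, adjusted p = 0.129) and without that of mouse 4 (0.98, adjusted p = 0.0506). With the mouse as a block, which pairs the pads of an animal, it was 0.73 log2 units (SE 0.31, adjusted p = 0.064).

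Summed T and NK cell markers were 70.7 CPM in mouse 3 and 58.7 CPM in mouse 4 and 15.2 to 29.8 CPM in the other obese tumor-associated libraries. In the control pads of obese mice 1 and 3, which hold lymph node markers, the same sum was 220 and 226 CPM, with Cxcl9 at 22.7 and 31.1 CPM. The part of these cells in the Cxcl9 level was not tested. Without the 3 libraries with lymph node markers the rise of Cxcl9 was 0.52 log2 units (adjusted p = 0.233). Against lean tumor-associated IWAT, Cxcl9 was higher in obese mice by 1.43 log2 units (SE 0.42, adjusted p = 0.00924), and it remained called in all 22 fits without a library. The genes whose deviations from the group means were most like those of Cxcl9 over the 22 libraries were Gbp2 (r = 0.83) and Gbp10 (r = 0.79), GTPases that interferon induces, whereas those of Cxcl10 were most like Espl1 (r = 0.82) and Capza2 (r = 0.81). Cxcl9 and Cxcl10 deviated together with an r of 0.38.

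Cxcl11 (chr5:92359544-92365485, minus strand), the remaining Cxcr3 ligand, is annotated as a polymorphic pseudogene, since C57Bl/6 mice carry a disrupted allele, and also overlaps Art3 and Gm2673 on the opposite strand. It had at most 4 counts in any library of the other 3 groups and 1 to 23 counts in tumor-associated IWAT of obese mice, with the most in mouse 4, where Cxcl10 also peaked. A fit without the filter on low counts gave 3.65 log2 units for obese against lean tumor-associated IWAT (SE 1.07, adjusted p = 0.0105, edgeR) and 2.07 for tumor-associated against control IWAT of obese mice (SE 0.83, adjusted p = 0.0512).

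Cxcl12 (chr6:117168535-117181367, plus strand), the stromal ligand of Cxcr4, was the member with the highest CPM and the only one called lower on the tumor side of obese mice. Lean control IWAT had 194, 200, 200, 174 and 224 CPM in mice 0, 2, 3, 6 and 9, and lean tumor-associated IWAT 261, 260, 213, 162 and 239 CPM. The lean pads overlapped (0.20 log2 units, SE 0.32, adjusted p = 0.919, edgeR). Obese control IWAT had 184, 217, 143, 226, 183 and 213 CPM in mice 0, 1, 2, 3, 4 and 8, and the tumor-associated pads of these mice 85.5, 172, 96.9, 144, 21.6 and 163 CPM. Each of the 6 obese mice had less Cxcl12 on the tumor side, although the groups overlapped. The difference was -0.77 log2 units (SE 0.29, adjusted p = 0.0302), or 0.586 times the control level. It was called in 18 of the 22 fits without a library and missed the threshold without the control library of mouse 3 or 8 or the tumor-associated library of mouse 0 or 2, with values from -0.93 to -0.56 over all 22. With the mouse as a block it was -0.96 log2 units (adjusted p = 0.0143), and without the 3 libraries with lymph node markers -0.76 (adjusted p = 0.0739).

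Against lean tumor-associated IWAT, Cxcl12 in obese tumor-associated IWAT was lower by a log2 difference of -0.997 (SE 0.303, adjusted p = 0.0107, edgeR), called in all 22 fits without a library. Between these pads the ranges over mice were 162 to 261 CPM in lean and 21.6 to 172 CPM in obese mice. Control IWAT of obese and lean mice differed by -0.03 log2 units (SE 0.30, adjusted p = 0.962). The tumor-associated change of Cxcl12 differed between diets by -0.97 log2 units (SE 0.43), with a p of 0.0349 before and 0.125 after adjustment.

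Between obese pads, endothelial markers were lower on the tumor side, as Cxcl12 was. Their summed level was 886 to 1235 CPM in obese control and 257 to 1096 CPM in obese tumor-associated IWAT. Of 5 markers, 4 were called lower, beside 27.7% of all genes. In lean mice the sum was 706 to 756 CPM in control and 766 to 928 CPM in tumor-associated IWAT. Cxcl12 was not called between lean pads or between control pads, where these sums did not overlap. Over the 22 libraries, the deviations of Cxcl12 from its group means had a Pearson r of 0.88 with those of the endothelial sum, 0.82 with the adipocyte sum, 0.77 with the macrophage sum and 0.73 with the fibroblast sum, as a description of points that share libraries and a depth. The genes with the most similar deviations among 11358 compared were Celf2 (r = 0.97) and Fli1 (r = 0.96), the latter a transcription factor of endothelial and blood cells. The tumor-associated library of mouse 4 was lowest in Cxcl12 and in the endothelial and adipocyte sums, and no r was computed without it. With both pads of mouse 4 left out, the fall of Cxcl12 was still called, with a log2 difference of -0.58 (SE 0.18, adjusted p = 0.0133). The part of these cell types in the Cxcl12 level was not tested.

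**Figure D3:**
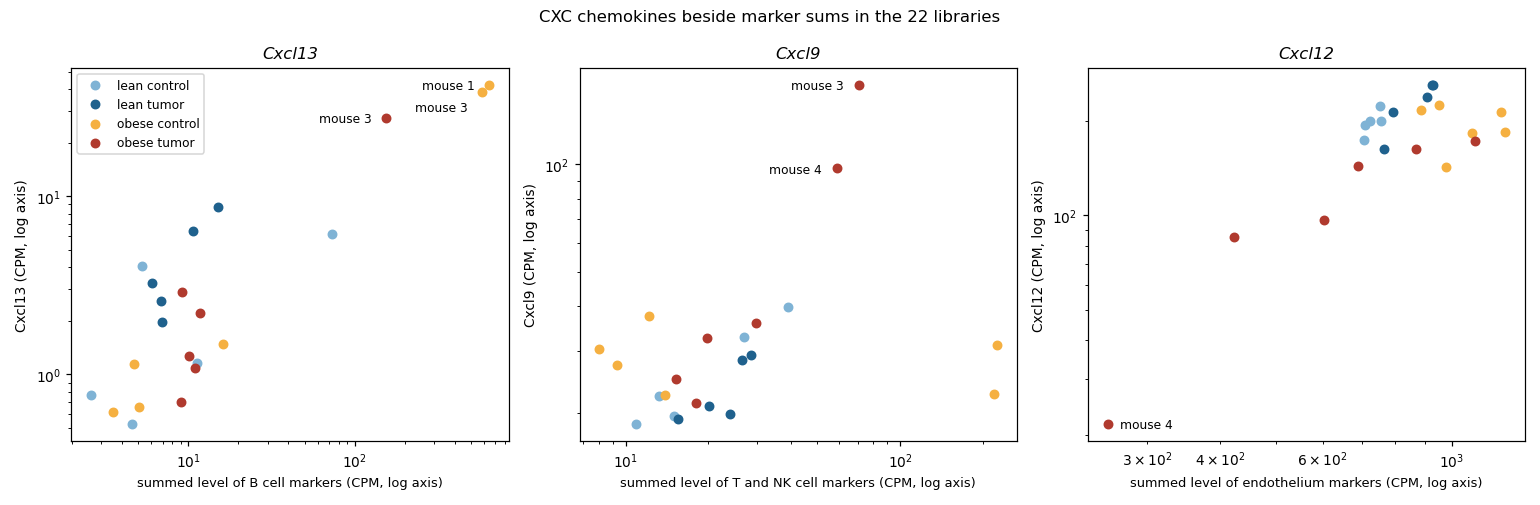
Level of Cxcl13, Cxcl9 and Cxcl12 (CPM, log axes) against the summed level of B cell, T and NK cell and endothelial markers (CPM, log axes) in the 22 libraries, coloured by group. The 3 libraries with the most Cxcl13, from 27.6 to 42.4 CPM, are those with the most B cell markers, and the library with the least Cxcl12, at 21.6 CPM, is the one with the fewest endothelial markers.

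Cxcl13 (chr5:95956951-95961068, plus strand), the B cell attractant of follicular stroma, was highest in the 3 libraries with lymph node markers. It was at 0.528 to 6.12 CPM in lean control and at 1.97 to 8.70 CPM in lean tumor-associated IWAT. Among obese control libraries it was at 42.4 and 38.4 CPM in mice 1 and 3 and at 0.614 to 1.49 CPM in the other 4. Among obese tumor-associated libraries it was at 27.6 CPM in mouse 3 and at 0.701 to 2.89 CPM in the other 5. These 3 high libraries are those with lymph node markers, and Cxcl13 did not exceed 8.70 CPM in the other 19. The part of lymphoid cells in its level was not tested. The deviations of Cxcl13 from its group means had an r of 0.93 with the B cell sum and 0.92 with the lymph node stroma sum over the 22 libraries, and the B cell receptor component Cd79b was among its closest genes (r = 0.95), after Zfp831 (r = 0.96). These sums are not separate readouts, since the stroma list holds the B cell genes Cr2 and Fcer2a.

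No comparison of all libraries called Cxcl13. Obese exceeded lean control IWAT by 2.50 log2 units (SE 1.18, adjusted p = 0.152, edgeR), and without the 3 libraries the difference was -1.32 (adjusted p = 0.232). Tumor-associated IWAT of obese mice was lower than control IWAT by -1.24 log2 units (SE 1.03, adjusted p = 0.317), and without the 3 libraries the difference was 0.69 (adjusted p = 0.414). Without only the tumor-associated library of mouse 3 it was -3.11 log2 units (SE 1.05, adjusted p = 0.0175) and passed the test. Obese against lean tumor-associated IWAT gave 0.39 log2 units (SE 1.10, adjusted p = 0.79), and without the 3 libraries -1.49 (adjusted p = 0.0455). Each of these differences thus changed sign with the libraries used.

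Cxcl14 (chr13:56288643-56296551, minus strand) was the only member that differed between control pads. Lean control IWAT had 120, 78.9, 101, 74.1 and 84.8 CPM in mice 0, 2, 3, 6 and 9. Obese control IWAT had 70.2, 38.8, 65.8, 40.5, 52.9 and 59.9 CPM in mice 0, 1, 2, 3, 4 and 8. All 6 obese libraries lay below the lowest lean library, as did 5.59% of all genes tested. The difference was -0.75 log2 units (SE 0.26, adjusted p = 0.0482, edgeR). The call stood close to the threshold, was kept in 7 of the 22 fits without a library, with values from -0.83 to -0.63, and was lost without the 3 libraries with lymph node markers (-0.57, adjusted p = 0.208). Mice 1 and 3 had the lowest Cxcl14 of the obese control libraries. It was kept in DESeq2.

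Between lean pads Cxcl14 was not called (0.02 log2 units, SE 0.27, adjusted p = 0.996, edgeR), with tumor-associated libraries of 73.1 to 113 CPM. In obese mice the tumor-associated pads had 84.5, 95.4, 67.6, 60.7, 26.1 and 119 CPM in mice 0, 1, 2, 3, 4 and 8, and 5 of 6 were higher than their control pad. The exception was mouse 4, which was also lowest in Cxcl12. The fitted difference was 0.47 log2 units (SE 0.24, adjusted p = 0.111), and without the tumor-associated library of mouse 4 it was 0.63 (adjusted p = 0.00827). With mouse 4 included, the deviations of Cxcl14 had an r of 0.83 with the fibroblast sum, 0.75 with the endothelial, 0.70 with the macrophage and 0.69 with the adipocyte sum. They were most like those of Medag (r = 0.94), a gene of adipocyte differentiation, and Vgll3 (r = 0.92). Cxcl12 and Cxcl14 deviated together with an r of 0.71, Cxcl1 and Cxcl2 with an r of 0.82, and Cxcl14 and Cxcl16 in opposite directions with an r of -0.55.

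Cxcl16 (chr11:70453983-70459984, minus strand), the ligand of Cxcr6 that macrophages carry on their surface, was not called in any comparison. Lean control IWAT had 16.5 to 24.5 CPM and lean tumor-associated IWAT 19.3 to 31.5 CPM, with 4 of 5 mice higher on the tumor side (0.39 log2 units, SE 0.29, adjusted p = 0.628, edgeR). Obese control IWAT had 11.1 to 33.5 CPM and obese tumor-associated IWAT 20.8 to 54.5 CPM, with 3 of 6 mice higher on the tumor side. The obese difference was 0.58 log2 units (SE 0.27, adjusted p = 0.068). The control libraries of mice 1 and 3, at 33.5 and 30.6 CPM, were the highest of their group, and without the 3 libraries with lymph node markers the difference was 0.99 log2 units (SE 0.29, adjusted p = 0.0084). It also passed the test without the control library of mouse 1 or 3 alone or the tumor-associated library of mouse 8, at 0.68 to 0.73 log2 units. With both pads of mouse 4 left out, whose tumor-associated library was the highest, it was 0.24 (adjusted p = 0.424). Over the 22 libraries, mouse 4 included, the deviations of Cxcl16 had an r of -0.73 with the adipocyte sum and 0.69 with the T and NK cell sum. They were most like those of Marcksl1 (r = 0.87) and Prpf38b (r = 0.84). The part of these cells in the Cxcl16 level was not tested. The span of Cxcl16 overlaps Zmynd15 on the opposite strand.

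**Figure D4:**
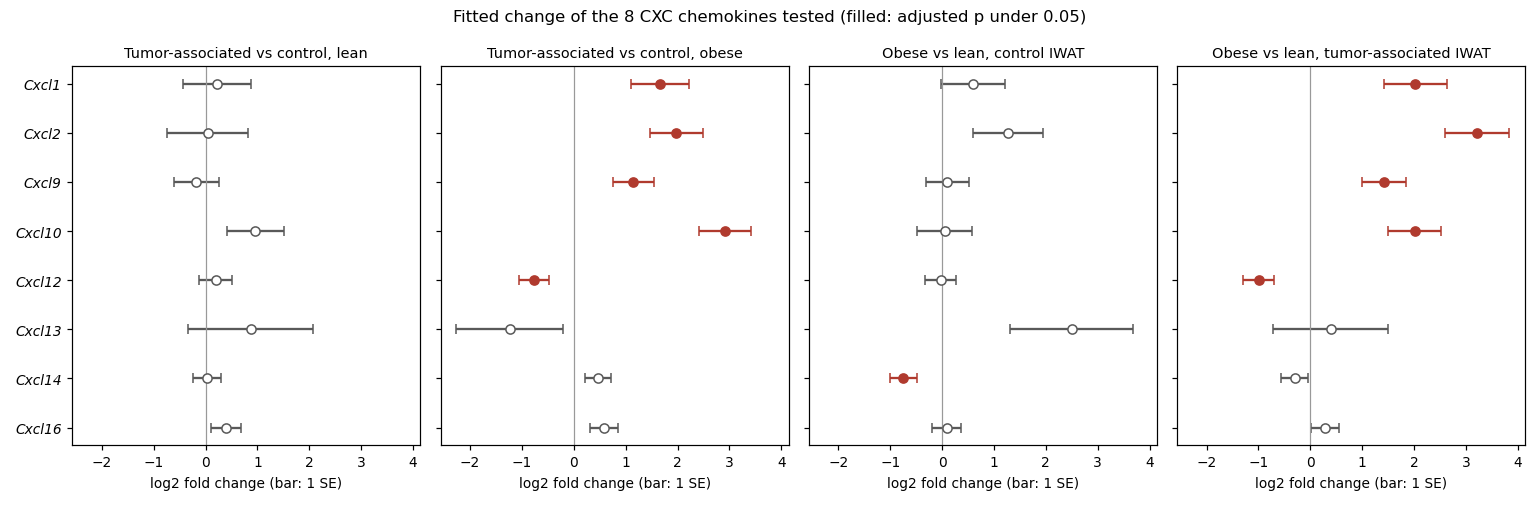
Fitted log2 fold change of the 8 CXC chemokines tested in 4 comparisons, with bars of 1 SE from the edgeR fit and filled symbols where the adjusted p was under 0.05. Filled symbols stand in the comparisons that involve tumor-associated IWAT of obese mice, where Cxcl10 rose by 2.92 and Cxcl12 changed by -0.77 against control IWAT, and at Cxcl14 between control pads.

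Between tumor-associated pads, obese mice also had more Cxcl1 and Cxcl10 than lean mice. Cxcl1 was higher by 2.02 log2 units (SE 0.61, adjusted p = 0.01, edgeR), and by 0.77 (adjusted p = 0.0804) without the library of mouse 8. Cxcl10 was higher by 2.01 log2 units (SE 0.51, adjusted p = 0.00329), from 1.56 to 2.50 in the 22 fits without a library and called in all of them. This comparison shares the obese tumor-associated libraries with the one between pads of obese mice. The median log2 difference of the 8 chemokines was 0.87 between pads of obese mice and 0.91 between tumor-associated pads, beside -0.02 and 0.03 over all genes tested. The 8 include Cxcl2, which passed the filter on low counts through obese libraries, so the medians support no shift of the family. The plot of fitted changes sets the 4 comparisons side by side.

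Of 8 receptors of these ligands, 6 were tested and 0 were called between pads in either diet, beside 54.5% of all genes in obese and 4.18% in lean mice. Cxcr1 had 0 counts in all 22 libraries, which allows up to 0.348 to 0.528 CPM per library, and Cxcr2, not tested either, was at 0 to 7.04 CPM in obese control and 0 to 1.80 CPM in obese tumor-associated IWAT, and at no more than 0.777 CPM in lean libraries. Ackr1, a scavenger of chemokines on venules and red cells, was not called between lean pads in the fit of all libraries (1.02 log2 units, adjusted p = 0.194, edgeR). Without the 3 libraries with lymph node markers it was at 0.99 (adjusted p = 0.235). It passed the test at 0.99 (adjusted p = 0.0246) without both pads of obese mouse 4, which are not part of the lean comparison. Cxcr3, the receptor of Cxcl9 and Cxcl10, was at 3.62 ± 3.04 CPM on the control side and 5.14 ± 3.90 CPM on the tumor side of obese mice (SD, n = 6; 0.50 log2 units, SE 0.56, adjusted p = 0.462, edgeR). Without the 3 libraries with lymph node markers the Cxcr3 difference was 1.13 log2 units (adjusted p = 0.0862, edgeR). Leaving them out also turned Cxcr5 between obese pads from -2.58 to 0.35 log2 units and Cxcr6 from -0.94 to 0.38, none of them called. Cxcr4 was called higher in obese than in lean control IWAT (1.28 log2 units, SE 0.41, adjusted p = 0.0348), but not without the 3 libraries with lymph node markers (0.36, adjusted p = 0.429).

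Of 5 other CXC ligands, 3 were tested. Pf4, the platelet and macrophage chemokine also called Cxcl4, was higher in tumor-associated IWAT of both diets. In lean mice it went from 19.8 ± 5.44 to 55.7 ± 19.3 CPM (SD, n = 5; 1.49 log2 units, adjusted p = 0.0294, edgeR), and in obese mice from 24.95 ± 6.53 to 86.2 ± 45.8 CPM (SD, n = 6; 1.79 log2 units, adjusted p = 0.000342). Cxcl15, a chemokine of lung and other epithelia that the table lists as Il8, was lower on the tumor side of obese than of lean mice, at 0.701 to 13.3 CPM against 11.4 to 64.5 CPM (-2.58 log2 units, SE 0.68, adjusted p = 0.0042, edgeR). Between obese pads it was lower on the tumor side in 6 of 6 mice (-1.42 log2 units, adjusted p = 0.0713), without being called. Ppbp, a platelet chemokine, differed by 1.68 log2 units between obese pads (adjusted p = 0.0566). Cxcl17 had at most 14 counts and was not tested. Cxcl3, a neighbour of Cxcl1 and Cxcl2 on chromosome 5, had at most 1 count in any library of the other groups and 0 to 8 counts in obese tumor-associated IWAT.

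Among 15 genes of the pathways that induce CXC ligands, listed as inducers, 10 were tested. In lean tumor-associated IWAT, 1 was higher (Irf7) and 0 lower, beside 4.18% of all genes called in either direction. In obese tumor-associated IWAT, 4 were higher (Irf7, Il1b, Nfkb2 and Rela) and 1 was lower (Ltb), beside 26.8% and 27.7% of all genes (54.5% in either direction). Irf7, a transcription factor of the interferon response, rose by 2.23 log2 units in lean (SE 0.21, adjusted p = 3.16e-06, edgeR) and by 2.11 in obese mice (SE 0.19, adjusted p = 3.96e-07). Its change differed between diets by -0.11 (SE 0.27, adjusted p = 0.792). Il1b, a cytokine that induces Cxcl1 and Cxcl2, went from 1.06 ± 0.842 to 11.6 ± 7.58 CPM in obese mice (SD, n = 6; 3.41 log2 units, SE 0.50, adjusted p = 3.41e-05, edgeR). Il1b had 6 to 13 counts in lean and 2 to 19 in obese control libraries. On the tumor side it had 11 to 42 in lean and 31 to 178 in obese mice. It thus passed the filter on low counts mainly through tumor-associated libraries, so its call describes the counts and supports nothing further. Ifng itself had 0 to 7 counts per library. Il6, not tested, had 1 or 2 counts in obese control libraries and 3 to 67 on the tumor side, higher in 6 of 6 mice, and in lean mice 0 to 3 and 3 to 20 counts. Tnf, Irf1, Nfkb1, Nfkbia and Relb were not called between pads in either diet, although Nfkb1 was called in obese mice without the 3 libraries with lymph node markers (0.32 log2 units, adjusted p = 0.00396). Il1a, Il17a and Lta were not tested. The lower Ltb, a lymphotoxin of lymphocytes, turned to 0.89 log2 units (adjusted p = 0.155) without the 3 libraries with lymph node markers. Nfkb2 rose by 0.59 log2 units between obese pads (adjusted p = 0.0266, edgeR). It was at 0.99 (adjusted p = 0.00123) without the 3 libraries and at 0.35 (adjusted p = 0.179) without both pads of mouse 4.

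Of 6 enzymes that process these ligands, 5 were tested, and 1 was called between obese pads, beside 54.5% of all genes. Adam17, a sheddase of membrane-bound proteins, was higher on the tumor side of obese mice (0.81 log2 units, SE 0.12, adjusted p = 3.38e-05, edgeR). Mmp9, which cleaves several CXC ligands, was lower in obese than in lean mice in both pads, by log2 differences of -1.10 (adjusted p = 0.00538) in control and -1.32 (adjusted p = 0.000379) in tumor-associated IWAT. Mmp2 was lower in obese than lean tumor-associated IWAT (-1.16 log2 units, adjusted p = 0.00178), whereas Adam10, which sheds Cxcl16, and Dpp4, which truncates Cxcl10 and Cxcl12, were not called in any comparison of all libraries. Without the 3 libraries with lymph node markers, Dpp4 was lower in obese than lean tumor-associated IWAT (-0.98 log2 units, adjusted p = 0.0353) and Mmp2 was lower on the tumor side of obese mice (-0.78, adjusted p = 0.0277). Without both pads of mouse 4, Mmp9 was lower on that side (-0.75, adjusted p = 0.02).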

How the data were processed

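Total RNA of IWAT was depleted of ribosomal RNA and sequenced. The authors trimmed the reads, mapped them to mm10 with STAR 2.4.0f, counted them per gene symbol with HTSeq and deposited raw counts, without normalization. The annotation and the strand setting are not given in the sources used here. The 5 lines of HTSeq totals were left out, and each library took its diet, pad and mouse from the sample labels.

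A single model of the 4 groups was fitted with edgeR 4.0.16 under R 4.3.3, using TMM factors, the default filter by group and the quasi-likelihood test. P-values were adjusted by Benjamini-Hochberg over all 14458 genes tested, with a threshold of 0.05. DESeq2 1.42.0 served as an alternative. Log2 CPM used a prior count of 2. Levels were divided by the exon length of GENCODE M21 basic transcripts on GRCm38, and promoters came from RefSeq. Alternatives were upper-quartile scaling, no filter, at least 10 counts in every library, a block for the mouse, a fit to only the compared groups, and leaving out each of the 22 libraries. Fits without libraries or on the compared groups kept the same 14458 genes. The fit was tested on simulated data.

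The pads of 1 animal share a mouse number. Deviations from group means correlated between pads of a mouse with a median r of 0.508 in lean (over 0.1 in 5 of 5 mice) and 0.168 in obese mice (4 of 6), against -0.124 and -0.072 between mice. Within groups, no library was a copy of another (smallest chi-square per degree of freedom 5.69). Counting floors cover counting error only.

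The 10 chemokines and the lists of receptors, other ligands, inducers, enzymes and markers were chosen with earlier results of these data known. All 10 are named in each comparison, other genes come from these lists (1 further inducer is not reported here), and the 2 genes with the most similar deviations were taken among those with a mean of at least 50 counts. The 3 libraries with lymph node markers and obese mice 4 and 8 were left out in fits chosen after the data were seen.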

Additional observations from a re-analysis of the deposited data

Results flagged for a closer look

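Of 40 groups of libraries checked, 10 chemokines in 4 groups, 3 held a library far from the others by Dixon's ratio of gap to range, where chance gives about 1 in 20 groups, or 2 here. In lean control IWAT, Cxcl5 was seen in mouse 9 alone, with 3 counts or 0.509 CPM and 0 in the others (ratio 1, critical value 0.71). Cxcl12 was at 21.6 CPM in tumor-associated IWAT of obese mouse 4 and at 85.5 CPM in the next library (ratio 0.661, critical value 0.625). That library also had the lowest adipocyte and endothelial marker sums, whose part in the value was not tested. Cxcl13 was at 27.6 CPM in tumor-associated IWAT of obese mouse 3 and at 2.89 CPM in the next library (ratio 0.651, critical value 0.625). That library is the only one of its group with lymph node markers.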

How the results depend on the processing

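Cxcl2 and Cxcl10 in both comparisons with obese tumor-associated IWAT kept their direction and call in all alternatives that tested them, though Cxcl2 passed the filter through obese libraries. Of the 8 chemokines, 5 were called between obese pads, 2 with at least 10 counts in every library (which tested 4) and 2 in a fit to the groups compared alone (Cxcl2 and Cxcl10, with Cxcl1, Cxcl9 and Cxcl12 lost). Between tumor-associated pads these counts were 5, 2 and 2. Between control pads the call of Cxcl14 went to 0 calls without a filter and without the 3 libraries with lymph node markers, and to 0 or 1 without single libraries. For the difference between diets, DESeq2 called 1 (Cxcl10), and single libraries left out gave 0 to 1. With the mouse as a block, the pairing of the pads ended the call of Cxcl9 between obese pads (0.73) and no other call, and turned Cxcl2 between lean pads to -0.0018 log2 units. Upper-quartile scaling turned Cxcl14 between lean pads to -0.012 and Cxcl10 between control pads to -0.0109. Without the 3 libraries with lymph node markers, Cxcl13 was at 0.69 between obese pads, -1.32 between control pads and -1.49 between tumor-associated pads, and Cxcl16 at -0.29 between control pads. Without both pads of mouse 4, Cxcl9 was at -0.0052 between control pads and Cxcl16 at -0.13 for the difference between diets. The other causes were not tested. Leaving out single libraries gave ranges on both sides of 0 between lean pads for Cxcl1 (-0.11 to 0.49), Cxcl2 (-0.32 to 0.27), Cxcl9 (-0.28 to 0.0129) and Cxcl14 (-0.0759 to 0.14), between control pads for Cxcl9 (-0.0019 to 0.29), Cxcl10 (-0.27 to 0.34), Cxcl12 (-0.0908 to 0.0298) and Cxcl16 (-0.0772 to 0.23), and between tumor-associated pads for Cxcl13 (-1.49 to 0.76). Over all genes, upper-quartile scaling moved the calls between lean pads from 473 higher and 132 lower to 382 and 199, and between control pads from 1380 and 1088 to 1068 and 1446. The calls for the difference between diets were 711, 2368 in DESeq2, 18 without a filter and 1 to 3559 without single libraries. Cxcl2, Cxcl5 and Cxcl11 rest on few counts, and tumor-free mice were not analysed here.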
